A study of Mus musculus with 9 samples.

Results

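Large H3K27ac domains are stretches of the genome where enriched regions (islands) of this mark lie close together. They were built separately in 3 mouse pancreatic cancer cell lines: islands of chromosomes 1 to 19 separated by 12.5 kb or less were joined, the reads of the islands were summed, and the 500 domains with the highest sum were kept in each line. The 1500 kept domains merged by overlap into 792 members, out of 16992 places where joining and merging the complete lists of the 3 lines gave a domain. The sums that chose the members are a measured value, so the membership of a line, its ranks and its H3K27ac reads are given below as a description. H3K4me3 and H3K27me3 were not used in the choice, but they are read on the same stretches and are not independent of it.

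The lines were a female line without Kdm6a (female KO), a male line without Kdm6a (male KO) and a male line with Kdm6a (WT). All came from pancreas of mice on a mixed C57BL/6-SV129 background, were grown in F12/DMEM with EGF, and received no treatment. The labels do not say how Kdm6a was removed, whether a line is 1 clone, or at what age the mice were taken, and no female WT line was analysed here. H3K27ac, H3K4me3 and H3K27me3 were each mapped by chromatin immunoprecipitation and sequencing (ChIP-seq), with 1 library per mark and line, so there is no replicate error and no p-value, and a difference between libraries cannot be told apart from one between lines or genotypes. Intervals are 95% intervals and cover counting over domains alone.

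H3K27ac is the acetylation of lysine 27 on histone H3, deposited by CBP and p300 at active enhancers and promoters. H3K4me3 marks promoters, and H3K27me3, written by Polycomb repressive complex 2 on the same lysine that can carry the acetyl group, marks silenced chromatin. Kdm6a (UTX) removes H3K27me3 and works within the MLL3 and MLL4 complexes that act at enhancers. Clusters of strong H3K27ac islands, often named super-enhancers, are known to lie near genes that define a cell's identity, and in cancer cells near oncogenes. The 500 domains were called large and not super-enhancers here, because the number was fixed and no factor or Mediator binding was measured. No gene annotation of the build of these files (mm9) was used, so domains are named by position.

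On autosomes the H3K27ac lists held 12153207 reads in 17972 islands in female KO, 10900677 reads in 23322 islands in male KO and 3940762 reads in 19747 islands for WT. Because these totals differ, reads are compared below within a line, as ranks, or as log2 ratios from which the median over all merged domains was subtracted. That median was 1.63 for female KO over WT and 1.46 for male KO over WT for H3K27ac, and for H3K4me3 it was 0.22 for female KO over WT and -0.76 for male KO over WT. H3K27me3 covered 329 Mb of the autosomes in female KO and 237 Mb in male KO, against 145 Mb in WT, and every count of H3K27me3 below has to be read beside these lengths.

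The 500 domains took a large part of each line's H3K27ac. These 500 were 4.12% of the 12131 joined domains and held 33.7% of the reads in female KO. In male KO they were 3.17% of 15777 domains with 29.1% of the reads, and in WT 3.84% of 13033 domains with 27.7% of the reads. The highest sum was 39761 reads and the lowest kept sum 4577 reads in female KO. These were 28803 and 3425 reads in male KO, and 8375 and 1276 reads in WT, so the range within the kept set was 8.69-fold, 8.41-fold and 6.56-fold in female KO, male KO and WT. The steepest domains were thus a larger part of the whole in the KO lines than in WT, and the first 50 ranks held 7.45% of the reads in female KO and 6.77% in male KO, against 5.90% in WT.

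**Figure D1:**
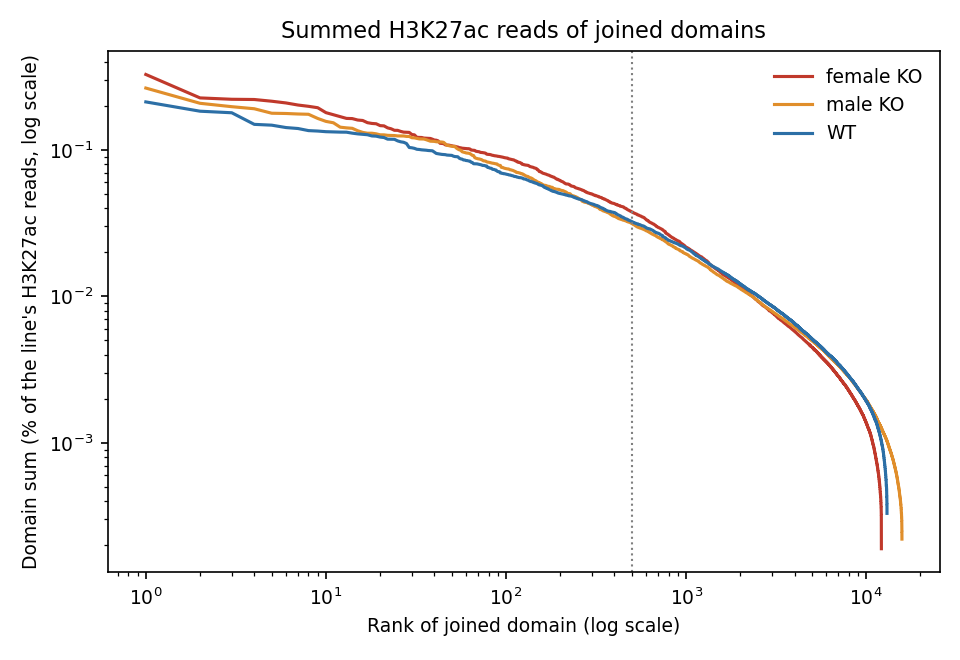
Summed H3K27ac reads of each joined domain as a percentage of the line's autosomal H3K27ac reads (log scale) against its rank (log scale), 1 curve per line (female KO, male KO, WT), with the dotted line at rank 500. The curves have no break at rank 500, and the female KO curve lies above the other 2 at that rank.

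Nothing in the sums separates the last kept domain from the first one left out. In female KO the last kept domain, chr11:69772001-69836000, and the first one left out, chr17:29561601-29634400, both held 4577 reads, and chromosome order decided between them. In male KO these were chr10:6199601-6245600 with 3425 reads and chr8:35865001-35885800 with 3422 reads. In WT they were chr5:145842601-145904600 with 1276 reads and chr17:44843001-44876800 with 1272 reads. A limit at the point where the scaled rank curve has a slope of 1, the usual way to set super-enhancers apart, gave 832 domains in female KO, 921 in male KO and 795 for WT.

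The typical large domain was a row of 4 islands in every line, but its length was not the same. The median span was 102 kb in female KO (98.4 to 105 kb) and 68.6 kb in male KO (65.8 to 72.4 kb), against 54.4 kb in WT (52.2 to 57.0 kb). The order of the spans followed the order of the H3K27ac reads per library, and the part of depth in it was not tested. The number of islands was the same in the middle of the distribution, with a median of 4 in each line and maxima of 13 in female KO and 18 in male KO, against 14 in WT. Domains of 1 unbroken island numbered 50 in female KO, 48 in male KO and 34 for WT. Among the joined domains beyond rank 500, single islands were the rule, with 8695 of 11631 in female KO and 11282 of 15277 in male KO, against 9076 of 12533 in WT.

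Islands inside the large domains were also wider than islands elsewhere. The median width was 17.2 kb inside against 7.2 kb outside in female KO, 10.4 kb against 4.4 kb in male KO and 8.4 kb against 4.0 kb in WT. The widest single island spanned 239 kb in female KO and 127 kb in male KO, against 81.0 kb in WT. Islands filled most of a domain, with a median of 91.3% of the span in female KO and 84.4% in male KO, against 78.3% in WT, so the share of gaps was highest in WT. Signal was denser as well: inside the domains the islands held 81.8 reads per kb against 54.5 outside in female KO. In male KO these were 102 and 67.8, and in WT 46.2 and 33.5 reads per kb. Width and density both enter the sum that chose the domains. In a typical domain 1 island dominated, since the strongest island held a median of 60.8% of the reads in female KO and 58.4% in male KO, against 54.6% in WT.

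**Figure D2:**
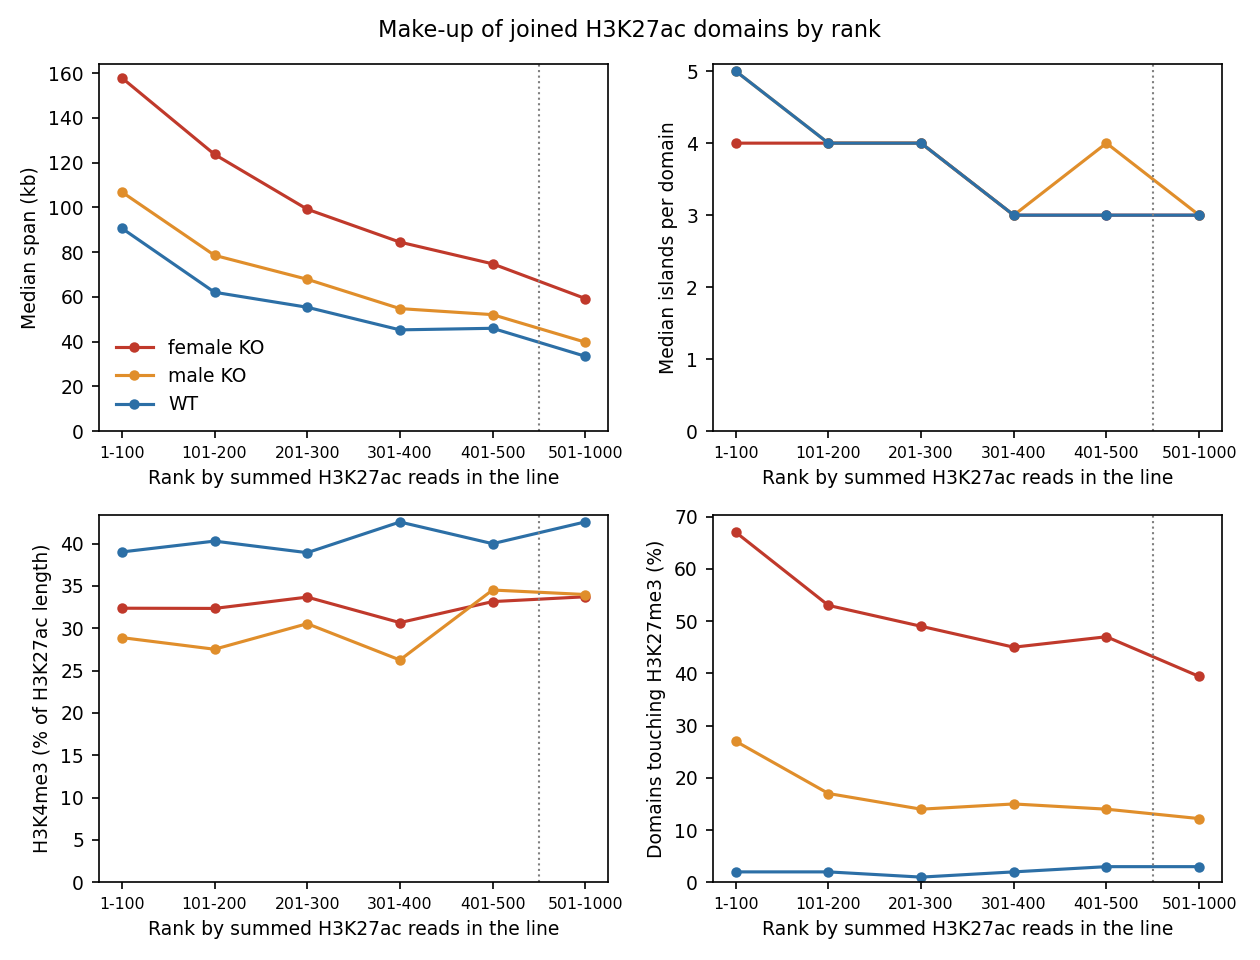
Median span in kb, median number of islands, share of the H3K27ac length that carries H3K4me3 and share of domains touching H3K27me3, for joined domains grouped by rank in female KO, male KO and WT; the dotted line separates kept domains from the next 500. Span shortens with rank in both KO lines, and in WT up to rank 400 (45.3 kb in the group that ends at rank 400 and 46.0 kb in the next); the H3K4me3 share stays between 26.3 and 42.6%, and the H3K27me3 share keeps the order female KO, male KO, WT in each group of ranks (in the panel of islands the male KO and WT lines overlap at most ranks).

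Nearly every large domain held a promoter mark. H3K4me3 of the same line was absent from 8 of the 500 domains in female KO, 17 in male KO and 16 for WT. Beyond rank 500 it was absent from 34.2, 40.9 and 33.3% of the joined domains in these lines. Among the next 500 ranks alone these shares were 8.4, 8.4 and 8.2%, so much of the contrast lay with domains of lower rank. The median domain met 3 H3K4me3 regions in each line, and the widest of them had a median width of 12.2 kb in female KO and 8.0 kb in male KO, against 9.6 kb in WT. All domains of the first 100 ranks met at least 1 such region in each of the 3 lines. Wider stretches meet more regions, so the length under the mark was compared too. H3K4me3 covered a median of 28.7% of the island length of a large domain in female KO (25.8 to 31.6%) and 26.8% in male KO (24.8 to 28.4%), against 40.2% in WT (37.6 to 42.6%). Pooled over the domains the share was 32.4% in female KO against 39.3% beyond rank 500. In male KO it was 29.2 against 37.7%, and in WT 39.9 against 46.5%. In each of the 3 lines large domains were thus covered by H3K4me3 over a smaller share of their islands than the other joined domains. The next 500 ranks lay closer to the large domains, with pooled shares of 33.7, 34.0 and 42.6% in female KO, male KO and WT. Of all islands inside the large domains, 1253 of 1985 met H3K4me3 in female KO, 1207 of 2088 in male KO and 1252 of 2098 in WT. These are 63.1, 57.8 and 59.7%, against 56.7, 50.7 and 57.6% of the islands beyond rank 500. Among the next 500 ranks alone they were 57.2, 56.8 and 60.3%, so the WT share there was not below that of the large domains.

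H3K27me3 met more of the large domains in the KO libraries than in the WT library. It met 261 of the 500 domains in female KO, 52.2% (47.8 to 56.5%), 87 in male KO, 17.4% (14.3 to 21.0%), and 10 in WT, 2.0% (1.09 to 3.64%). Beyond rank 500 the shares were 25.3% in female KO and 9.67% in male KO, against 2.13% in WT. By length the large domains were not richer in the mark than the pool of all joined domains beyond rank 500. H3K27me3 covered 9.39% of their span in female KO against 11.5% of that pool. The male KO values were 2.44% against 3.68%, and the WT values 0.137% against 0.587%. The next 500 domains by rank gave another order for the KO lines. There the mark covered 9.18% of the span for female KO and 1.88% for male KO, slightly less than in the large domains. The WT value there was 0.493%, more than in the large domains. Domains with at least 10% of the span under H3K27me3 numbered 146 in female KO, 29.2% against 22.1% beyond rank 500. In male KO there were 33, 6.6% against 8.23%, and in WT 2, 0.4% against 1.71%. In these 2 lines the share was thus below that of all domains beyond rank 500. Among the next 500 ranks alone it was 5% for male KO, below the large domains, and 1% for WT, above them. At least 50% of the span was covered in 12 large domains of female KO, 2.4% against 11.0% beyond rank 500. In male KO it was covered in 2, 0.4% against 4.42%, and in WT in none, with a Wilson interval up to 0.762%, against 0.535%. Wide coverage was thus less common in the large domains than in all domains beyond rank 500 in both KO lines. Among the next 500 ranks alone it was found in 4% of the domains for female KO and 0.2% for male KO. When the KO lists of H3K27me3 were shortened, keeping the regions with the highest reads per kb, to the covered length of WT, the share of large domains met was 32.2% in female KO and 15.2% in male KO, against 2.0% in WT. The shortened lists held 3085 regions in female KO and 11926 in male KO, against 26240 in WT, so they match WT in length but not in number of regions. This comparison at equal length was added after the other values were known.

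Inside a domain the repressive mark took a larger share of the length between islands than on them. H3K27me3 covered 16.1% of the gaps and 8.64% of the islands in female KO. In male KO these were 4.79 and 1.92%, and in WT 0.309 and 0.0854%. Beyond rank 500 the gaps of female KO were covered over 14.4% and the islands over 11.2%. The 2 marks on lysine 27 were therefore found on the same length of DNA in part of each KO library, which a library from many cells cannot assign to the same or to different cells.

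The domain of male KO with the longest H3K27me3 lay on chromosome 4 from 120280801 to 120440800, with rank 116 and 11 islands. It held 7640 H3K27ac reads over 148.2 kb and 4778 H3K27me3 reads over 132.0 kb of its 160.0 kb. Female KO had 176 H3K27ac reads over 6.0 kb and 7497 H3K27me3 reads over 121.0 kb there. WT had 427 H3K27ac reads over 16.0 kb and no H3K27me3 region. In female KO the domain with the longest H3K27me3 was on chromosome 2 from 167503001 to 167721800, where rank 18, 215.2 kb of H3K27ac and 112.4 kb of H3K27me3 came together. Male KO had 103.6 kb of H3K27ac and 1.8 kb of H3K27me3 in that domain, and WT 87.6 kb of H3K27ac and no H3K27me3. In WT the longest was 15.8 kb on chromosome 5 from 148045401 to 148127600, rank 314.

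Merging sorted the 792 members by the lines that held them. All 3 lines held 240 members, 30.3% (27.2 to 33.6%). Both KO lines without WT held 76, 9.6% (7.74 to 11.8%), female KO and WT 36, and male KO and WT 73. Female KO alone held 148 members, male KO alone 93, and WT alone 126, 15.9% (13.5 to 18.6%). Both KO lines are set against the same WT list, so these counts are not independent. No member held more than 1 domain of female KO, whereas 17 held 2 or more domains of male KO and 23 held 2 or more of WT. The strongest domains were shared more than the rest: of the first 50 ranks, 45 of female KO and 47 of male KO overlapped one of the 500 WT domains, but of all 500 only 276 and 321 did. Part of this is built in, since the first ranks lie far from the limit and their domains are wider. At ranks 1 to 100 the median span was 157.9 kb in female KO and 106.9 kb in male KO, against 101.9 and 68.6 kb over all 500.

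**Figure D3:**
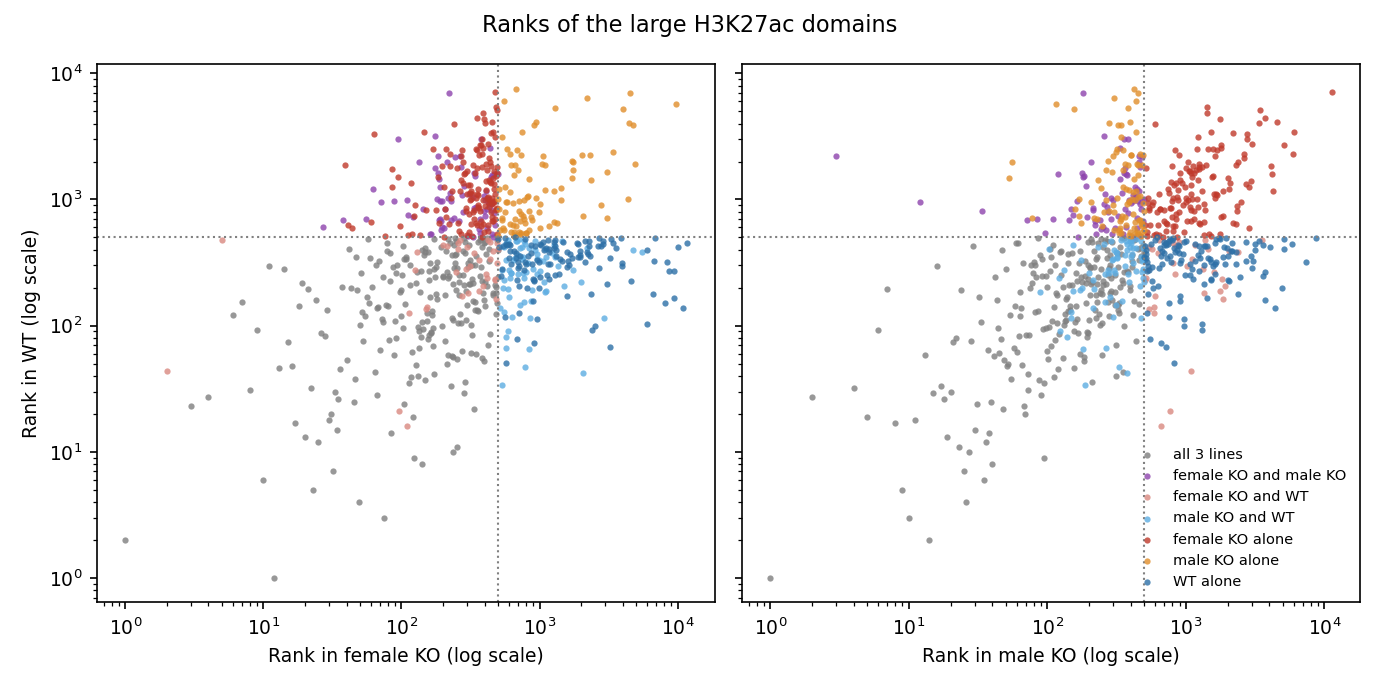
Rank of each member in female KO (left panel) and male KO (right panel) on the horizontal axis and its rank in WT on the vertical axis, both on log scales, coloured by the lines that hold it; dotted lines mark rank 500, and members with no H3K27ac region in a line are not drawn. The 240 members held by all 3 lines fill the lower left, and members held by WT alone lie below the horizontal dotted line and right of the vertical one in both panels.

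Missing a line's 500 seldom meant that H3K27ac was missing there. Of the 126 members held by WT alone, 4 had no H3K27ac region in female KO and 1 had none in male KO. Of the 148 of female KO alone, 1 had none in male KO and 2 had none in WT, and of the 93 of male KO alone, 1 had none in WT. The 76 members of both KO lines had a median rank of 939 in WT. Of these, 45 lay within rank 1000 there, 23 more within rank 2000, and 8 beyond. Members of WT alone had a median rank of 1286 in female KO and 1155 in male KO. Each rank is that of the best domain overlapping the member, so reads divided by gaps of more than 12.5 kb rank lower than their sum. Among the 240 members of all 3 lines, ranks were related across members with a Spearman rho of 0.358 for female KO and WT, 0.535 for male KO and WT, and 0.522 for female KO and male KO. These points share libraries and a limit at rank 500, and they are given as a description. The median shift in rank was 102 places between female KO and WT and 72.5 between male KO and WT.

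The member with the best ranks over all lines lay on chromosome 15 from 101142201 to 101290600, with rank 12 in female KO and rank 1 in male KO, against rank 1 in WT. It held 20471 H3K27ac reads in female KO, 28803 in male KO and 8675 for WT, in 4, 6 and 8 islands. H3K4me3 covered 51.8, 43.6 and 49.0 kb of its 148.4 kb in these lines, a near constant length. H3K27me3 covered 24.6 kb in female KO and 6.2 kb in male KO, and no WT region lay there.

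The widest member spanned 479.8 kb on chromosome 8 from 128996001 to 129475800. Female KO carried it as 1 domain of 8 islands with rank 1, 454.2 kb of H3K27ac and 39761 reads. In male KO it was split into 3 kept domains with 19 islands, 325.0 kb and 31406 reads, the best at rank 14. WT also had 3 kept domains there, with 23 islands, 302.2 kb and 14058 reads, the best at rank 2. H3K4me3 took a small part of it, 51.8 kb in female KO and 33.6 kb in male KO, against 50.2 kb in WT. Most of this member was therefore H3K27ac without the promoter mark in each line.

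A member on chromosome 10 from 79420801 to 79647200 showed another make-up, with H3K4me3 over 176.0 kb in female KO and 98.2 kb in male KO, against 126.6 kb in WT. The member spans 226.4 kb. Its ranks were 4 in female KO and 2 in male KO, against 27 in WT. The next was on chromosome 11 from 86378401 to 86473600, with rank 23 in female KO, 9 in male KO and 5 for WT and no H3K27me3 in any of the 3 lists. Its H3K27ac was 1 unbroken island of 95.2 kb in female KO and 2 islands in male KO, against 3 in WT. On chromosome 9 from 63486601 to 63646200 the ranks were 17, 8 and 17 in female KO, male KO and WT. There H3K27ac formed 3 islands in female KO and 2 in male KO, against 11 in WT.

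Among the members of all 3 lines, the largest gain of mean KO rank over WT rank was on chromosome 16 from 92602601 to 92701200. It had rank 79 in female KO, rank 59 in male KO and rank 452 for WT. H3K27ac covered 98.6 kb in female KO and 91.4 kb in male KO, against 40.4 kb in WT, and H3K27me3 was in none of the 3 lists. The next gains were on chromosome 18 from 60753601 to 60938400, at ranks 102 and 29 in female KO and male KO against 424 in WT, and on chromosome 6 from 91102001 to 91247200, at ranks 57 and 206 against 483. In the member on chromosome 6, H3K27me3 covered 40.4 kb in female KO and 15.4 kb in male KO, against 15.6 kb in WT. The largest losses were at chr1:174340401-174458200, at ranks 426 in female KO and 315 in male KO against 70 in WT, chr6:97225401-97286800, at 492 and 330 against 150, and chr11:99290001-99390800, at 208 and 433 against 75. The one on chromosome 11 stood out by its H3K4me3, with 1454 reads in female KO and 439 in male KO against 4308 in WT, scaled log2 ratios of -1.79 and -2.53.

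Members of both KO lines and not WT were led by 2 neighbours on chromosome 4. The first, from 154839201 to 155271400, had the best mean KO rank of this pattern, 41.5, with rank 71 in female KO and 12 in male KO. Its best rank in WT was 947. WT held 2651 reads there, above its lowest kept sum of 1276, so gaps of more than 12.5 kb divided them over domains. H3K27ac covered 257.6 kb of this member in female KO and 318.2 kb in male KO, against 74.4 kb in WT. H3K4me3 was longer there too, 204.4 kb in female KO and 141.2 kb in male KO against 102.2 kb in WT. The other, from 154430001 to 154708000, had rank 184 in female KO, 3 in male KO and 2223 for WT. Its mean KO rank of 93.5 came after those of members on chromosomes 14 and 7, 54.5 and 69.5. With 18 islands over 278.0 kb it was both the widest domain of male KO and the one with most islands. It carried H3K27me3 over 124.0 kb in female KO and 62.8 kb in male KO, and none in WT. Both KO lines thus had longer regions of all 3 marks on this stretch than WT.

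The other leading members of both KO lines carried little or no H3K27me3. Chromosome 14 from 8605401 to 8800400 had ranks 38 and 71 in female KO and male KO against 691 in WT, with 173.6 and 131.0 kb of H3K27ac against 67.0 kb. Chromosome 7 from 73415601 to 73538600 had ranks 55 and 84 against 705 in WT. Neither of these 2 members met H3K27me3 in any line. The H3K4me3 length of the one on chromosome 14 was 23.0 kb in female KO and 20.2 kb in male KO, against 21.4 kb in WT. On chromosome 5 from 125485401 to 125676800 the ranks were 111 and 152 against 755, and H3K27me3 covered close to the same length in each list, 10.2 kb in female KO and 10 kb in male KO, against 9.6 kb in WT. In WT the members on chromosomes 14, 7 and 5 held 2294, 1978 and 1559 reads, above the lowest kept sum of 1276. Gaps of more than 12.5 kb divided these reads over domains, so the low WT ranks come from gaps as well as from reads.

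Members of WT alone were led by a domain on chromosome 1 from 16144601 to 16236000, at rank 575 in female KO and 821 in male KO, against 51 in WT. H3K27ac still covered 71.0 kb in female KO and 47.8 kb in male KO, against 75 kb in WT, and H3K27me3 was in none of the lists. Male KO held 3524 reads in this member, above its lowest kept sum of 3425. On chromosome 17 from 31430801 to 31469400, female KO had 870 reads at rank 3219 and 12.4 kb of H3K27me3. Male KO had 2714 reads at rank 714 there and no H3K27me3. WT had 1 island of 38.6 kb with 3163 reads at rank 68 and no H3K27me3. Its H3K4me3 covered 4.8 kb in female KO and 6.2 kb in male KO, against 21.6 kb in WT.

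The third, on chromosome 8 from 122188601 to 122271000, had H3K27me3 over 74.0 kb of its 82.4 kb in female KO and 18.6 kb in male KO, and none in WT. H3K4me3 reads were 140 in female KO and 388 in male KO against 2095 in WT. Its ranks were 917 in female KO, 658 in male KO and 73 for WT. H3K27ac still covered 59.6 kb in female KO, so part of the length carried both marks on lysine 27 in that line. The remaining pair lay on chromosome 1 from 137042801 to 137128400, at ranks 687 and 552 against 79 in WT, and on chromosome 2 from 24259801 to 24379400, at 2381 and 1311 against 93. On chromosome 1 the 4020 reads of male KO were above that line's lowest kept sum of 3425. On chromosome 2 H3K27ac covered 26.4 kb in female KO and 33.2 kb in male KO, against 84.8 kb in WT.

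H3K27me3 in female KO had its highest share in the members that only WT held. It covered at least 10% of the span in 58 of these 126 members, 46.0% (37.6 to 54.7%), and in 206 of the other 666, 30.9% (27.5 to 34.5%), where the share over all merged domains was 24.8%. In WT none of the 126 reached 10%, with an interval up to 2.96%, so all 58 count as places with the mark over at least 10% in female KO and under 10% in WT. Over all 792 members there were 241 such places, 30.4%, where the level over all merged domains was 19.0%. By length the mark covered 24.7% of the span of WT-alone members in female KO against 10.4% of the other members, where it covered 13.9% over all merged domains. In male KO 17 of the 126 reached 10%, 13.5% (8.6 to 20.5%), against 73 of the other 666, 11.0% (8.81 to 13.6%). These intervals overlap, and both hold the share over all merged domains, 11.2%. Members with the mark over 10% in male KO and not in WT numbered 71 of 792, 8.96%, against a level of 6.25% over all merged domains. The reverse, under 10% in the KO line and at least 10% in WT, was found for no member in female KO, where the level was 0.730%, and for 4 members in male KO, where it was 1.57%. The difference inside female KO was smaller with a shortened H3K27me3 list. With the list cut to the covered length of WT, 19.8% of WT-alone members and 17.9% of the other members reached 10%. That list kept the 3085 regions with the highest reads per kb out of 19387, against 26240 regions in WT, so it differs from WT in more than length. With islands joined only at gaps of 5000 bp or less the shares were 30.3 and 23.8%.

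**Figure D4:**
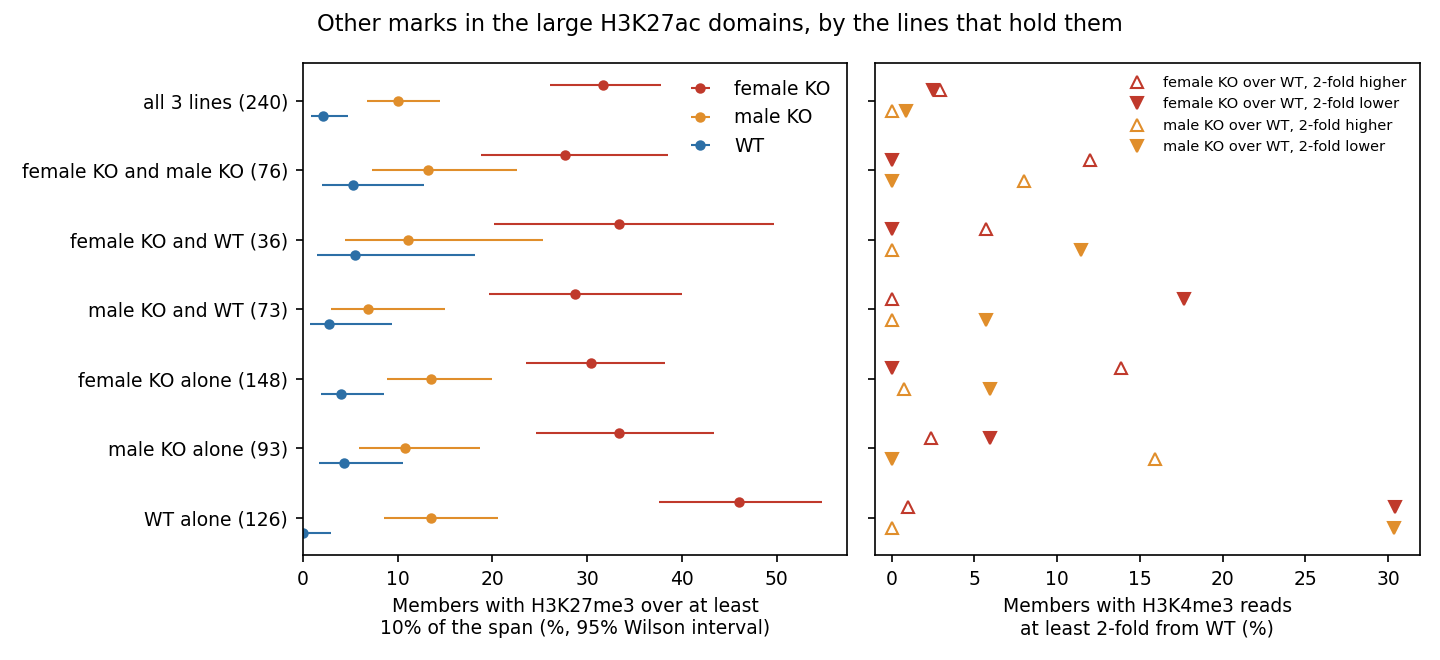
Left, share of members with H3K27me3 over at least 10% of the span in female KO, male KO and WT, with 95% Wilson intervals, for members grouped by the lines that hold them (number of members in brackets). Right, share of members whose scaled H3K4me3 reads were at least 2-fold higher (open triangles) or lower (filled triangles) than in WT. The WT-alone members have the highest female KO share on the left, 46.0%, and the highest shares of lower H3K4me3 on the right.

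Where WT-alone members had H3K27ac in WT and none in a KO line, H3K27me3 was found on part of the lost length. Of the 5.10 Mb of WT H3K27ac without H3K27me3 in these members, 29.5% had no H3K27ac in female KO, and H3K27me3 covered 42.6% of this lost length against 15.5% of the length with H3K27ac in both. In male KO 33.6% was lost, with H3K27me3 on 5.32% of the lost and 2.35% of the kept length. Outside the members the order was the same, with 23.3% of the lost and 8.27% of the kept length in female KO and 6.4 and 1.46% in male KO. It was also the same in the other members, with 20.3 and 5.52% in female KO and 3.88 and 0.576% in male KO. The order was thus not particular to WT-alone members. The larger part of the lost length therefore carried no H3K27me3 in either KO line.

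The extreme cases were 4 WT-alone members with no H3K27ac region in female KO, named here after their values were seen. They lay on chromosome 3 from 100568601 to 100634400 and from 101617801 to 101659600, on chromosome 10 from 127310801 to 127364600 and on chromosome 19 from 41391401 to 41460400. H3K27me3 covered 47.4, 93.8, 91.8 and 96.2% of their spans in female KO, in that order. In male KO they carried 16.8, 13.0, 11.2 and 31.2 kb of H3K27ac, with H3K27me3 on 3.6 kb of the one on chromosome 10 and on none of the other 3. In WT none of the 4 met H3K27me3, and they ranked 264, 160, 486 and 389 there. The WT-alone member with no H3K27ac in male KO lay on chromosome 10 from 61649001 to 61696400, with H3K27me3 over 8.6 kb in male KO and 5.2 kb in female KO. On chromosome 12 from 106067801 to 106156600, the WT-alone member with the longest H3K27me3 in female KO, the mark covered 87.6 of 88.8 kb in female KO and 19.2 kb in male KO. H3K27ac there covered 6.4 kb in female KO and 34.0 kb in male KO, against 66.8 kb in WT.

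Opposite cases, with a large domain in a KO line and no H3K27ac in WT, numbered 3. On chromosome 4 from 119764601 to 119847000, male KO held H3K27ac over 66.2 kb and H3K27me3 over 70.8 kb. Female KO had 8.8 kb of H3K27ac and 78.4 kb of H3K27me3 there, and WT had no region of either mark. On chromosome 19 from 38646601 to 38712200, female KO held 60.4 kb of H3K27ac, 3.6 kb of H3K4me3 and no H3K27me3, and neither active mark was found in male KO or WT. Male KO had 9.0 kb of H3K27me3 there, 13.7% of the span, and WT none. On chromosome 19 from 43566601 to 43649800, H3K27ac covered 82.6 kb in female KO and 2.2 kb in male KO, while H3K27me3 was on 27.8 kb in female KO and 24.6 kb in male KO, against 27.8 kb in WT.

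H3K4me3 was low in the KO lines in many members that only WT held. The choice did not use H3K4me3, but it took these members for H3K27ac that ranked high in WT and lower in both KO lines. Their scaled H3K27ac reads were 2-fold lower in 84 of 122 in female KO and in 67 of 125 in male KO. Both active marks are read on the same stretches, so the H3K4me3 values are a description and not independent support. After scaling, H3K4me3 reads were at least 2-fold lower than WT in 31 of 102 WT-alone members in female KO, 30.4%, and in 34 of 112 in male KO, 30.4%. Over all members they were lower in 54 of 740 in female KO, where the level over all merged domains was 5.67%, and in 52 of 751 in male KO, where it was 2.72%. They were higher in 40 of 740 members in female KO, against a level of 3.27%, and in 21 of 751 in male KO, against 6.14%. Of the 148 members of female KO alone, 137 had H3K4me3 in both lines, and 19 of these were 2-fold higher and none lower in female KO. Of the 93 of male KO alone, 88 had it in male KO and WT, and 14 were 2-fold higher and none lower in male KO. The median log2 ratio was -0.49 in female KO and -0.62 in male KO for WT-alone members, and 0.14 and -0.19 for members of all 3 lines. Of the WT-alone members with H3K4me3 in both lists, 1 of 102 was 2-fold higher in female KO and none of 112 in male KO.

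By H3K27ac, the measure used for the choice, 99 of 785 members were 2-fold higher and 128 lower in female KO, where 11.5 and 14.0% of all merged domains were. In male KO 49 of 788 were higher and 94 lower, beside levels of 8.15 and 12.0%.

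Among the 6 leading members held by WT and 1 KO line, 5 had a best rank between 532 and 768 in the other KO line. The exception was on chromosome 17 from 84371401 to 84601000, where female KO had rank 2 and 223.6 kb of H3K27ac, male KO a best rank of 1090 and 96.8 kb over 6 islands, and WT rank 44 and 101.8 kb. Male KO had 8135 reads in that member, more than its lowest kept sum, so they were divided over domains by gaps of more than 12.5 kb. On chromosome 5 the members from 100972201 to 101104800 and from 91019601 to 91217000 had ranks 96 and 110 in female KO and 768 and 660 in male KO, against 21 and 16 in WT. Their male KO reads, 4888 and 5851, were also above that line's lowest kept sum of 3425. For male KO and WT the leading members were chr7:149545601-149631200, chr5:44162201-44262200 and chr8:3351801-3450600, with ranks of 591, 532 and 572 in female KO and 124, 186 and 138 in male KO, against 91, 34 and 82 in WT. In female KO the member on chromosome 7 held 6373 reads, above the lowest kept sum of 4577. Those on chromosomes 5 and 8 held 4550 and 4464 reads, below it.

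Female KO alone held a member on chromosome 6 from 38678001 to 38865200 at rank 39, with ranks of 2294 in male KO and 1869 in WT. H3K27ac covered 185.0 kb in female KO and 41.6 kb in male KO, against 26.0 kb in WT, and H3K4me3 16.8, 5.8 and 11.2 kb. The next, on chromosome 11 from 120315801 to 120510400, had ranks of 41, 549 and 623 in female KO, male KO and WT, and on chromosome 6 from 53966801 to 54184200 they were 44, 2877 and 598. The one on chromosome 11 held 9402 reads in male KO and 3421 in WT, above the lowest kept sums of 3425 and 1276. The last held 2980 reads in WT, above that sum, and 2300 in male KO, below it. Male KO alone was led by 3 members on chromosome 4, from 117883001 to 117971000, from 120157601 to 120266400 and from 116786001 to 116893000, with ranks of 53, 56 and 77. Their WT ranks were 1484, 1971 and 719, and their H3K4me3 reads were also higher in male KO than in WT, by log2 ratios of 1.62, 1.4 and 1.37.

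Members of different lines were spread differently over the chromosomes. Chromosome 4 held 19 of the 148 members of female KO alone and 16 of the 93 of male KO alone, but 1 of the 126 of WT alone. Chromosome 1 held none of female KO alone and 21 of WT alone, and chromosome 6 held 19 of female KO alone and 3 of WT alone. Of all 16992 merged joined domains, 992 lay on chromosome 4, 1355 on chromosome 1 and 819 on chromosome 6. Members of any pattern made up 4.94, 4.06 and 6.84% of the domains there, in that order. The active marks over all joined domains of these chromosomes differed from WT in the same direction in female KO. On chromosome 4 the median scaled log2 ratio in female KO over WT was 0.61 for H3K4me3 and 0.82 for H3K27ac, and on chromosome 6 it was 0.32 and 0.63. In male KO chromosome 4 had medians of -0.12 for H3K4me3 and 0.12 for H3K27ac, and chromosome 6 had -0.03 and 0.05. Chromosome 1 had -0.22 for H3K4me3 and -0.31 for H3K27ac in female KO, and -0.21 and -0.23 in male KO.

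In male KO the values differed along chromosome 4. The window from 115 to 120 Mb of chromosome 4 held 5 members of male KO alone and 2 of both KO lines. Its joined domains that are no members had a median H3K4me3 log2 ratio of 1.21 in male KO over 34 domains and 0.59 in female KO over 32. For H3K27ac these were 1.58 over 23 domains in male KO and 0.77 over 18 in female KO. From 130 to 140 Mb the 2 windows held 10 members of female KO alone and none of male KO alone. There the H3K4me3 medians of other domains were 0.66 and 0.64 in female KO, against -0.28 and -0.37 in male KO. In these windows the domains that are no members thus differed from WT too. Other windows of chromosome 4 with members of male KO alone, starting at 10, 55, 85, 120, 125 and 145 Mb, differed less. Their male KO H3K4me3 medians were -0.06, 0.06, 0.01, 0.25, 0.51 and -0.26. The male KO H3K27ac medians were -0.16, 0.45, 0.28, 0.14, 0.98 and -0.29 in the same order, so the window at 125 Mb was also raised. The part of regional shifts in the membership was not tested. Without chromosome 4, WT-alone members were 15% of the merged set and members of all 3 lines 30.9%.

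**Figure D5:**
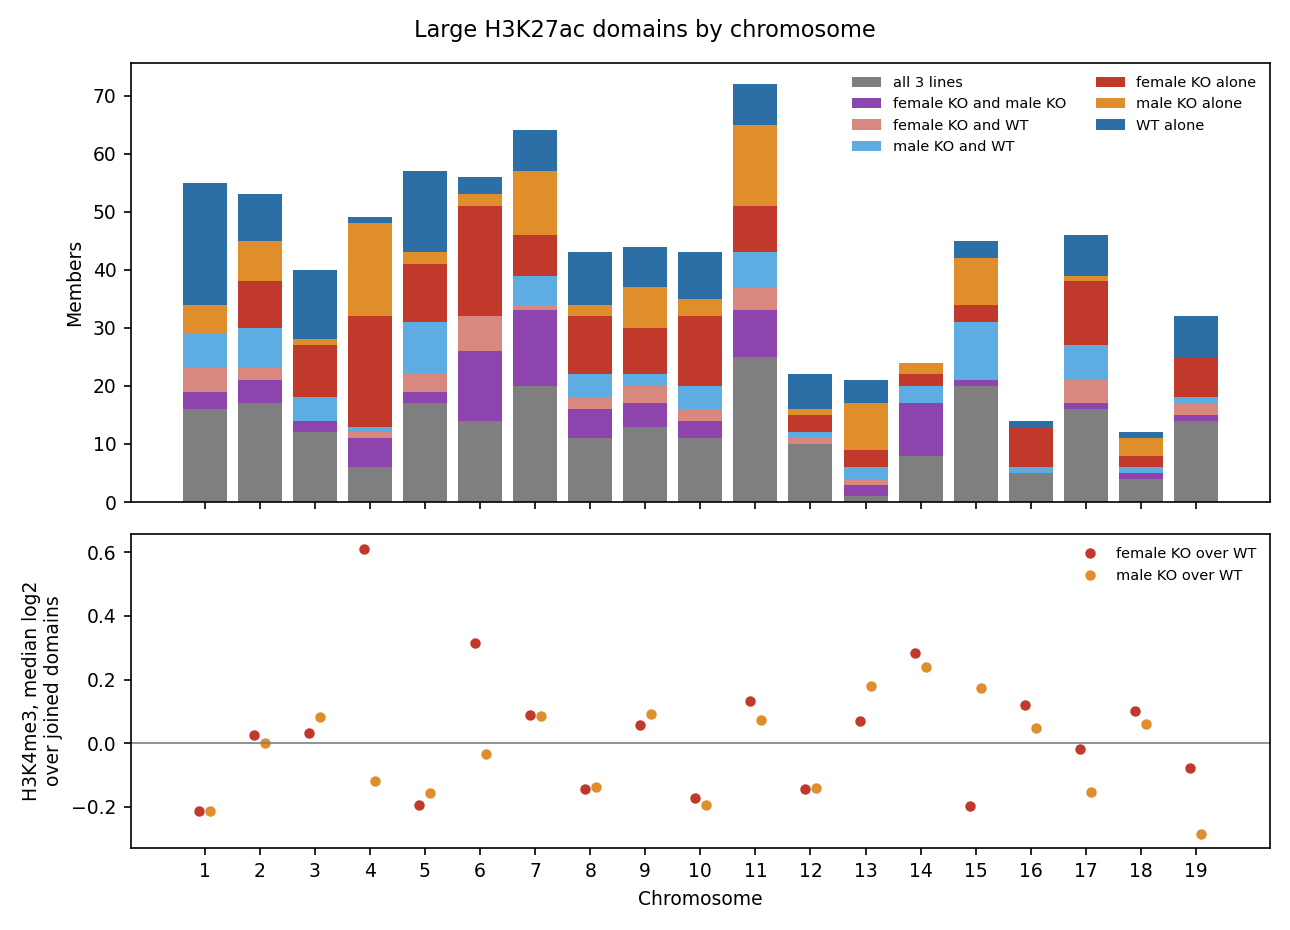
Top, number of members per chromosome, stacked by the lines that hold them. Bottom, median log2 ratio of H3K4me3 reads over all merged joined domains of the chromosome for female KO over WT and male KO over WT, after subtracting the median over all domains. Chromosome 4 has 49 members, 1 of WT alone, and the highest female KO median, 0.61.

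Members were unevenly spread in number as well. They made up 7.31% of the merged joined domains on chromosome 17, 7.24% on chromosome 19 and 7.16% on chromosome 11, but 1.92% on chromosome 18, 2.11% on chromosome 16 and 2.17% on chromosome 13. Chromosome 11 held the most, 72, of which 25 were held by all 3 lines. The domain of WT with the widest span and the most islands, 14, lay on chromosome 17 from 35028801 to 35228200 at rank 4, with 85.6 kb of H3K4me3 in 14 regions and no H3K27me3. In female KO the most islands, 13, lay on chromosome 19 from 3995001 to 4340600 at rank 6, with 186.4 kb of H3K4me3 in 14 regions. Male KO and WT reached ranks of 412 and 122 in that member, with 18 and 26 islands.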

How the data were processed

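The data are 9 lists of enriched regions, 1 per histone mark and line. Bowtie 1.1.2, SICER 1 and the build mm9 are named, without further settings, per the submitters' processing notes. Each deposited list, without a header, gives a position and a whole number per island, read here as its count of reads. The sources used here give no control library, false discovery rate or total depth, so intervals cover counting over domains alone. Borders lie on a grid of 200 bp, and positions are 1-based. Autosomal islands were joined at gaps of 12500 bp or less, ranked by summed count and limited to 500, and then merged at an overlap of 1 bp; ties went by position. Counts were spread evenly over an island. With 1 library per mark and line no test was run. Fold calls of 2 used reads scaled by the median over merged domains with reads in both lists. Shares have Wilson and medians have binomial order-statistic intervals.

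Members, lists and comparisons were chosen with earlier results of these data known. Domains were named by fixed rules: the best mean ranks (5 for all 3 lines, both KO lines and WT alone, 3 for other patterns), the 3 largest rank gains and losses, the last domain kept and the first left out, and the widest domain, the one with most islands and the one with most H3K27me3 per line. Joining was tested on simulated data. Tools were Python 3.11.15 with scipy 1.17.1, pandas 2.3.3, numpy 2.4.6 and, for plots, matplotlib 3.10.9. Alternatives changed the gap, the number kept, the ranking, the islands, the chromosomes, the overlap and the depth or length of lists. Lists of the same covered length, scaled H3K27me3 lists and the alternatives for WT-alone members were added after seeing the data. Chromosomes X and Y were left out.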

Additional observations from a re-analysis of the deposited data

Results flagged for a closer look

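The H3K27ac reads of the member on chromosome 4 from 120280801 to 120440800 differed from WT in opposite directions in the KO lines. The scaled log2 ratio was -2.91 in female KO and 2.70 in male KO. Each direction rests on 1 library, both ratios use the same WT library, and the difference was not tested.

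On chromosome X, which the choice of members left out, 1 joined H3K27ac domain of male KO held more reads than the lowest kept sum of that line, 4009 against 3425 reads. In female KO and WT no domain on chromosome X did, with highest sums of 4264 and 793 reads against lowest kept sums of 4577 and 1276.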

How the results depend on the processing

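No paired analysis was possible because each mark and line has 1 library. Of 145 recomputed values, 96 stayed within the interval of the value reported and 49 moved outside it; causes were not tested beyond the construction of each alternative. With a gap of 5000 bp, a domain had a median of 2 islands in each line, H3K27me3 met 46.6% of domains in female KO and 9.4% in male KO, 27% of members were in all 3 lines, and 30.3% of WT-alone and 23.8% of other members had H3K27me3 over at least 10% of the span in female KO. With 250 domains per line, H3K27me3 met 57.6% in female KO, and 26.0 and 12.1% of members were in all 3 lines and in both KO lines without WT. At the tangent cut-off the median was 3 islands in each line, the H3K4me3 share in male KO 28.8%, and 34.5, 12.1 and 12.1% of members were in all 3 lines, both KO lines and WT alone. Ranked by covered length, H3K4me3 shares were 23.7% in female KO and 24.4% in male KO, against 36.9% in WT, 23.1% of members were in all 3 lines, and H3K4me3 was 2-fold lower in 22.1% of WT-alone members in male KO. With islands at or above the median count, domains had 3 islands in each line, H3K27me3 met 47.6% in female KO, 11.2% in male KO and 1.0% for WT, and 26.6% of members other than WT-alone ones had it over 10% of the span in female KO. With islands free of H3K4me3, domains had 2 islands, H3K27me3 met 22.2% in female KO, 5.6% in male KO and 1.0% for WT, 11.7% of members were in all 3 lines and 22.8% in WT alone, H3K27me3 reached 10% in 27.6% of WT-alone and 19.0% of other members in female KO, and H3K4me3 was 2-fold lower in 20% of WT-alone members in female KO. When a line had to cover 50% of a member, 18.1% were in all 3 lines and 15.2% in both KO lines without WT. With H3K27me3 over at least 10% of the span, it met 29.2% of domains in female KO and 6.6% in male KO, against 0.4% in WT. With H3K27me3 lists of the same covered length it met 32.2% in female KO, and reached 10% in 19.8% of WT-alone and 17.9% of other members there. No value moved without chromosome 4. None moved with scaled H3K27ac or H3K27me3 lists either, but 1 factor for all counts of a line cannot change its ranks or overlaps, and only the removal of the weakest regions could act, so this says little about depth. The named domains stayed on their side of the limit in 84 of 84 ranks without chromosome 4 and 44 of 81 with islands free of H3K4me3.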
